A study of Homo sapiens with 9 samples.

Results

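MHC class I antigen presentation was described here through 9 genes: HLA-B, HLA-C, HLA-E and HLA-F, which encode class I heavy chains, B2M, TAP1, TAP2, TAPBP and NLRC5. The members were the probe sets annotated to exactly 1 of these symbols, which gave 25 probe sets of 9 genes, out of 41091 single-symbol probe sets of 19775 genes. The 9 Affymetrix arrays came from H69 cells, an established human line from a neuroendocrine small cell lung cancer, which all groups share. Over 24 h the cells received PIK75 at 100 nM, TGX221 at a labelled dose of 1 mM, or the solvent DMSO (control, whose treatment field reads none), on 3 arrays each. PIK75 and TGX221 are inhibitors of PI3K, a family of lipid kinases downstream of growth factor receptors, and prefer different isoforms. The labelled TGX221 dose lies far above that of PIK75 and could not be checked, so the 2 compounds were not compared at matched doses. The labels tell the arrays of a group apart by number only. Every p-value therefore rests on array-to-array spread, which may be technical.

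Class I molecules carry short peptides from inside the cell to its surface, where CD8 T cells read them. The heavy chain folds with the small partner beta-2 microglobulin, the product of B2M, and receives its peptide in the endoplasmic reticulum. TAP1 and TAP2 form the pump that brings peptides in from the cytosol, and tapasin, the product of TAPBP, holds the empty heavy chain beside that pump. NLRC5 is a transactivator that switches on class I promoters together with the DNA-bound factors RFX, CREB1/ATF1 and NF-Y, while interferons act through a separate response element. Small cell lung cancers of neuroendocrine type are known for low class I expression.

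Values were on a log2 scale, so a difference of 1 means a doubling, and a gene stood for its brightest probe set over all arrays. A gene was called changed at an adjusted p below 0.05 (limma, Benjamini and Hochberg over all genes). Values of all genes had an interquartile range of 2.48 to 2.57 with PIK75, 2.71 to 2.77 with TGX221 and 2.78 to 2.83 in control. Markers of neuroendocrine cells were bright on all arrays, with list means of 11.45 to 11.50 with PIK75, 11.84 to 11.87 with TGX221 and 11.82 to 11.83 in control. The 15 measured leukocyte markers had list means of 6.86 to 6.91, 6.73 to 6.77 and 6.70 to 6.72 in the same order of groups. A list of 24 genes of unrelated tissues had means over all arrays between 5.00 and 8.74, with a median of 7.33, and gauged where a silent gene reads. By their brightest probe sets, HLA-B, HLA-C, HLA-E, HLA-F, B2M and TAPBP read above the whole of that range. For all of these genes but TAPBP, these are probe sets that the maker marks as sharing probes with other transcripts. HLA-B and HLA-C had no probe set without that mark. Those of the others, HLA-E 200904_at (mean 6.43), HLA-F 221978_at (6.63) and B2M 232311_at (6.79), lay within the range. TAP2, at a mean of 8.63, TAP1 at 8.06 and NLRC5 at 6.35 lay within it, so part of their signal may be background, and a change in them may be understated.

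Positions are those of RefSeq genes on GRCh38.p14. The class I region of chromosome 6 holds HLA-F (chr6:29723434-29738532), HLA-E (chr6:30489509-30494194), HLA-C (chr6:31268749-31272092) and HLA-B (chr6:31353875-31357179). Nearer to the class II genes lie TAP2 (chr6:32821831-32838739), TAP1 (chr6:32845209-32853704) and TAPBP (chr6:33299694-33314078). B2M (chr15:44711517-44718145) and NLRC5 (chr16:56989557-57083520) lie on other chromosomes.

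The promoters of 4 members are shown because they hold the elements through which this gene group is known to be switched on together. Each is the 250 bases before the RefSeq start on GRCh38.p14, 5′ to 3′ on the gene's own strand. They lie at chr6:31272093-31272342 (minus strand), chr6:31357180-31357429 (minus strand), chr6:32853705-32853954 (minus strand) and chr15:44711267-44711516 (plus strand). Capitals mark matches to the core of the interferon-stimulated response element, searched on both strands as GAAA, any 2 bases and GAAA or, with the shorter core, GAA, any 2 bases and GAAA.
HLA-C: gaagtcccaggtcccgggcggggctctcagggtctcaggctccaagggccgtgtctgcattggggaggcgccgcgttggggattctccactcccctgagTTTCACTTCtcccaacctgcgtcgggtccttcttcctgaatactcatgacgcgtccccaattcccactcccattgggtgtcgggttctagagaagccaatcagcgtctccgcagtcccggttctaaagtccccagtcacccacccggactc
HLA-B: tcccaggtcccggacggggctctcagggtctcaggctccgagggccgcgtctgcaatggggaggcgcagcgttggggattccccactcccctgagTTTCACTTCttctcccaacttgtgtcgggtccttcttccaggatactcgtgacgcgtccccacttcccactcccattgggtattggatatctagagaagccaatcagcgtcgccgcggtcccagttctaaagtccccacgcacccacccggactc
TAP1: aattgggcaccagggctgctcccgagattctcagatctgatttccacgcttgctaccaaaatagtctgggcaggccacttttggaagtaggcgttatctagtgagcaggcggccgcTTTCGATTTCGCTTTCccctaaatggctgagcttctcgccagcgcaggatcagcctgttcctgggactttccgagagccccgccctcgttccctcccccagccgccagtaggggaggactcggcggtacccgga
B2M: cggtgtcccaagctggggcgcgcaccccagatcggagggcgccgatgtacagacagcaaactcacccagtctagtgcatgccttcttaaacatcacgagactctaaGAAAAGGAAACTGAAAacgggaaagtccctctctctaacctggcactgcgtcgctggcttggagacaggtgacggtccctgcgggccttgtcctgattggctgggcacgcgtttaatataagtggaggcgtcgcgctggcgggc
An entry was matched for 7 of the 9 genes (HLA-B, HLA-C, HLA-F, B2M, TAP1, TAP2 and TAPBP), and 1 or the other core stood in all 7, against 9.08% of 35116 promoter windows of the same length. HLA-F, B2M, TAP1, TAP2 and TAPBP held the longer core (3.02% of all windows), and HLA-B, HLA-C and TAP2 the shorter (6.56%). The NF-kB core, searched on both strands as GGG, any 2 bases, TT, any 1 base and CC, stood in 4 of 7 (HLA-B, B2M, TAP1 and TAPBP), against 5.07% of all windows. CCAAT, the letters read by NF-Y, stood in 5 of 7 on either strand, against 32.0%, and TGACG, the short site of CREB1, in 4 of 7, against 21.2%. The HLA-B and HLA-C windows shared 226 of 254 aligned positions (89.0%), while those of B2M and TAP1 shared 51.8%. These are matches of letters in the reference and not measured binding.

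With PIK75, 3 of the 9 class I genes fell slightly and none rose as deposited. HLA-C, TAP1 and HLA-F were lower by 1.12-fold to 1.22-fold (in bulk RNA, fewer cells with a transcript and less of it per cell cannot be told apart), and HLA-B, HLA-E, B2M, TAP2, TAPBP and NLRC5 did not pass. Of all 19775 genes 60.4% were called with PIK75, 35.2% higher and 25.2% lower, so 3 of 9 is no more than the share called among all genes. The 3 PIK75 arrays lay wholly on 1 side of the 3 control arrays in 5 of the 9 genes, against 64.7% of all genes. The members' median log2 difference was -0.048, against 0.088 over all genes. As deposited and for the brightest probe sets, no member moved by as much as 1.5-fold, and the widest 95% interval reached a 1.33-fold fall, in TAP1. With hybridization spikes TAP1 (-0.64) and HLA-C (-0.61) were past 1.5-fold. The difference between the 3′ and 5′ probe sets of actin, a sign of RNA quality, was 0.47, 0.54 and 1.13 with PIK75, 0.26, 0.41 and 0.32 with TGX221, and 0.24, 0.29 and 0.44 in control (log2), with PIK75 replicate 5 apart from the rest. Without that array HLA-C was at -0.24, TAP1 at -0.29 and HLA-F at -0.21 against control, and each still passed.

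HLA-C encodes a classical heavy chain that also serves as a ligand of inhibitory receptors on natural killer cells. It read 11.64, 11.62 and 11.60 with PIK75, 11.82, 11.80 and 11.86 with TGX221, and 11.90, 11.91 and 11.82 in control. All PIK75 arrays were below every other array. HLA-C was thus 1.19-fold lower with PIK75 than in control (log2 difference -0.26, SE 0.049, adjusted p = 0.000845) and 1.15-fold lower than with TGX221 (-0.21, adjusted p = 0.00439). The difference from control ran from -0.61 to -0.14 over 23 other settings of scaling, probe set, spread and left-out array. The difference from TGX221 did not pass with cyclic loess (-0.095, adjusted p = 0.166, the highest across settings, the lowest being 1.61e-06).

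HLA-B, the other classical heavy chain measured, read 10.74, 10.75 and 10.62 with PIK75, 10.90, 10.79 and 10.91 with TGX221, and 10.96, 10.82 and 10.74 in control. The PIK75 arrays overlapped the lowest control array and lay below all TGX221 arrays. Neither difference passed by limma: -0.14 from control (SE 0.067, adjusted p = 0.0944) and -0.17 from TGX221 (adjusted p = 0.0587). The difference from control passed for the mean of the 3 probe sets of HLA-B (-0.17, adjusted p = 0.0308), with arrays centred on hybridization spikes (-0.49) and without control replicate 5 (-0.19, adjusted p = 0.0462). It was -0.00037 with cyclic loess, and its adjusted p lay between 8.14e-06 and 0.997 across settings. The difference from TGX221 passed under 7 of 23 settings, among them without control replicate 1 (adjusted p = 0.0433) and without TGX221 replicate 3 (adjusted p = 0.0447), and its adjusted p lay between 2.96e-05 and 0.613.

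HLA-F and HLA-E encode nonclassical heavy chains, and HLA-E shows natural killer cells a peptide cut from the leaders of other class I chains. HLA-F read 10.15, 10.01 and 10.21 with PIK75, 10.26, 10.23 and 10.30 with TGX221, and 10.32, 10.31 and 10.23 in control. The highest PIK75 array lay just under the lowest control array. HLA-F was 1.12-fold lower with PIK75 than in control (-0.16, SE 0.060, adjusted p = 0.0317). This call was lost under 10 of 23 other settings, among them without control replicate 1 (adjusted p = 0.0901), control replicate 3 (0.0868) or PIK75 replicate 3 (0.132) and with cyclic loess (-0.035, adjusted p = 0.695, the highest of a range from 1.65e-06), and the difference turned to 0.068 for the HLA-F probe set without a shared-probe suffix. HLA-E read 9.21, 9.27 and 9.23 with PIK75, 9.14, 9.10 and 9.19 with TGX221, and 9.22, 9.14 and 9.19 in control, and did not pass against control (0.051, adjusted p = 0.398). Averaging its 3 probe sets, HLA-E passed as higher (0.15, adjusted p = 0.0157), and scaling to hybridization spikes made HLA-E lower (-0.30, adjusted p = 0.00106), with adjusted p between 0.00106 and 0.849 across settings.

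B2M, the shared light chain, read 13.67, 13.65 and 13.62 with PIK75, 13.73, 13.69 and 13.72 with TGX221, and 13.69, 13.69 and 13.70 in control. The PIK75 arrays were the 3 lowest, by a margin of the same order as the spread within groups. The difference from control was -0.047 (95% interval -0.15 to 0.054, adjusted p = 0.388). B2M passed lower with arrays centred on hybridization spikes (-0.40), a setting that shifts all genes.

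TAP1 showed the largest fall among the members. It read 7.95, 7.81 and 7.88 with PIK75, 8.14, 8.10 and 8.16 with TGX221, and 8.17, 8.23 and 8.11 in control. The PIK75 arrays lay below all others, and TAP1 was 1.22-fold lower than in control (-0.29, SE 0.055, adjusted p = 0.000766) and 1.19-fold lower than with TGX221 (-0.25, adjusted p = 0.00244). Over 22 other settings the difference of TAP1 from control ran from -0.64 to -0.25. PSMB9, a catalytic subunit of the immunoproteasome, starts 487 bases from TAP1 on chromosome 6 and reads in the opposite direction. PSMB9 averaged 7.32 with PIK75 and 7.16 in control and did not pass (0.16, adjusted p = 0.12).

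TAP2, the partner of TAP1 in the pump, read 8.66, 8.65 and 8.67 with PIK75, 8.68, 8.63 and 8.56 with TGX221, and 8.60, 8.55 and 8.63 in control. The PIK75 values lay just above those of control and among those of TGX221, and the difference from control did not pass (0.067, adjusted p = 0.27). Tapasin, from TAPBP, read 9.15, 8.98 and 9.01 with PIK75, 9.10, 9.09 and 9.11 with TGX221, and 9.08, 9.01 and 9.19 in control, with groups that overlap throughout (-0.048, adjusted p = 0.507). NLRC5 read 6.39, 6.35 and 6.51 with PIK75, 6.35, 6.35 and 6.25 with TGX221, and 6.35, 6.25 and 6.35 in control (0.099, adjusted p = 0.159). At this low level, in the range of silent genes, NLRC5 expression could not be told from background.

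**Figure D1:**
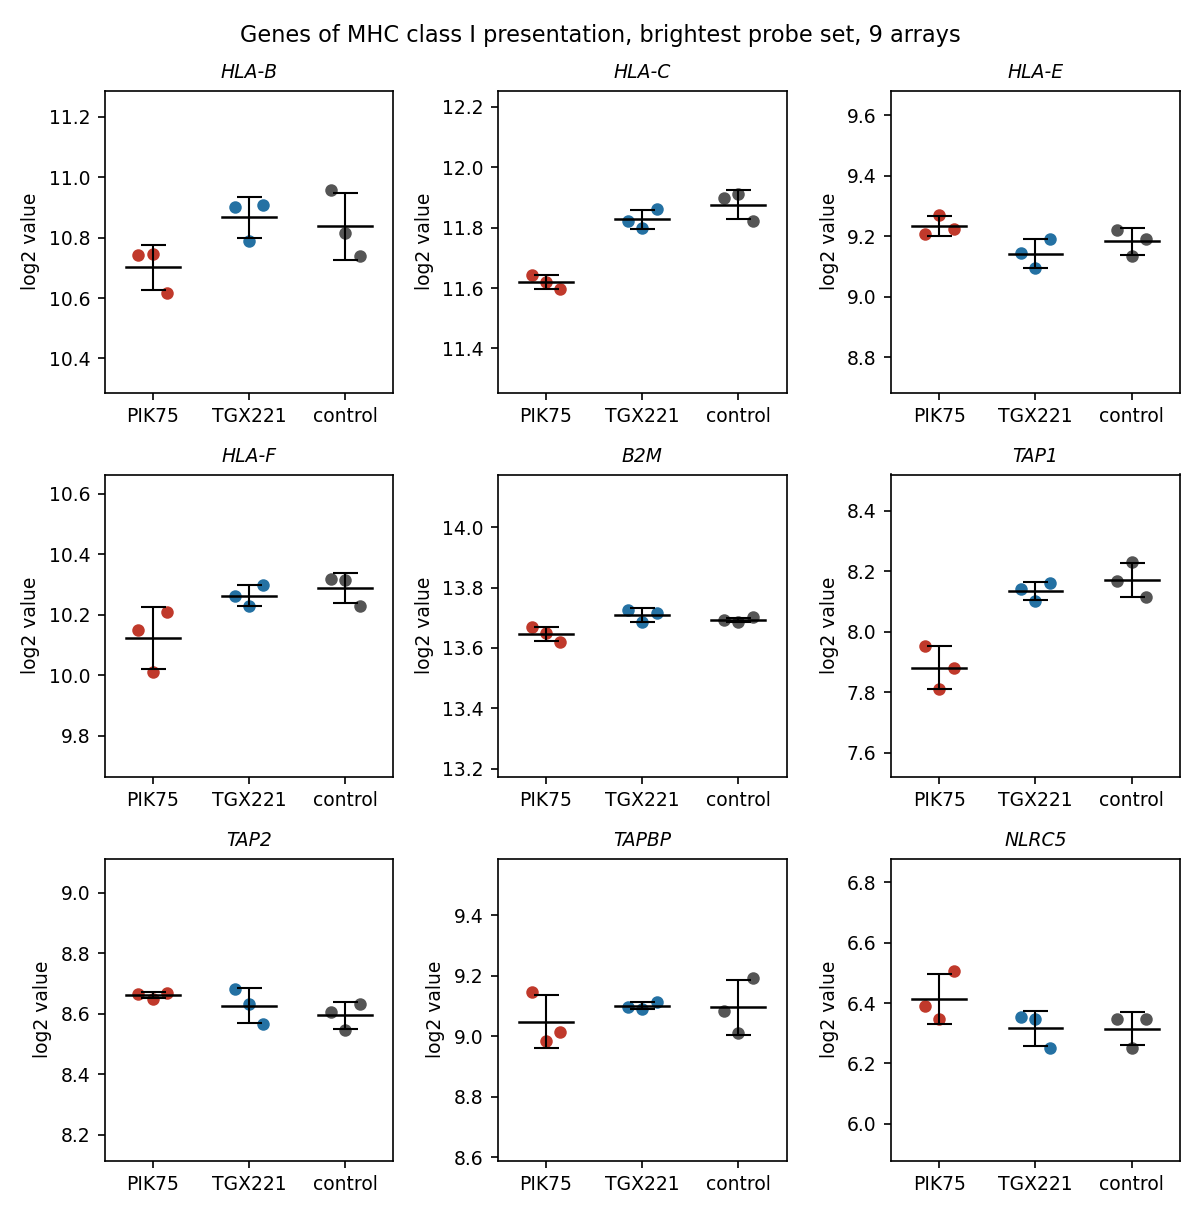
Log2 value of the brightest probe set of each of the 9 genes (vertical axis, a span of 1 log2 unit in each panel) on the arrays of each group (points), with the mean and SD of 3 arrays (lines and bars). The PIK75 points of HLA-C and TAP1 lie below all other points, while PIK75 and control points overlap for HLA-B, HLA-E, TAPBP and NLRC5.

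TGX221 left the 9 genes close to control. None passed by limma, and none had an unadjusted p below 0.05 either (0 of 9 on both counts), where 1.21% of all genes were called. For the brightest probe sets, the largest difference of a member was -0.049, in HLA-C. Their 95% intervals all lay between -0.16 and 0.17, so a change of more than 1.13-fold lay outside each of these 9 intervals. Intervals of dimmer probe sets reached further, such as 0.32 in HLA-E 200904_at. In none of the 9 brightest probe sets did the 3 TGX221 arrays lie wholly to 1 side of the 3 control arrays, as 23.9% of all genes did. In the dimmer HLA-C 208812_x_at they lay wholly below control, but the difference did not pass by limma (-0.091, adjusted p = 0.436). The count of 0 called members held under all 23 other settings. Set directly against TGX221, PIK75 arrays were lower in HLA-C and TAP1 (2 of 9, against 47.4% of all genes called, 25.1% higher and 22.3% lower), and the remaining 7 members did not pass. The PIK75 and TGX221 arrays did not overlap in 6 of 9 members, against 55.1% of all genes. The doses differ, and this contrast shares its PIK75 arrays with the comparison against control.

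The probe sets of a gene gave a finer view of the same arrays. Tested one by one, 11 of the 25 probe sets passed with PIK75 against control, 8 lower and 3 higher, where 53.7% of all single-symbol probe sets passed, 23.5% lower and 30.2% higher. With TGX221 none of the 25 passed by limma (0.241% of all probe sets), and their differences ran from -0.093 to 0.15. With PIK75 against TGX221 1 was higher and 7 were lower, where 41% of all probe sets passed, 20.9% higher and 20% lower. Of the 25, 11 carry the suffix _x_at and 5 the suffix _s_at, with which the maker marks probes shared with other transcripts. All probe sets of HLA-B and HLA-C are of the _x_at kind, so the signals of these near-identical heavy chains, and of other class I transcripts, cannot be told apart by these arrays. The brightest probe sets of HLA-E and HLA-F are also of this kind, and their signal may include other class I transcripts.

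The 4 probe sets of HLA-C were all lower with PIK75 and 3 passed. The largest difference was in 208812_x_at, which read 11.17, 11.06 and 11.00 with PIK75 and 11.50, 11.46 and 11.45 in control (-0.40, SE 0.055, adjusted p = 9.67e-05). All 3 probe sets of HLA-B were lower, from -0.23 to -0.14, and 1 passed. For HLA-F the 2 probe sets of the _x_at kind fell (-0.18 and -0.16), and the dim other one, 221978_at, was at 0.068 and did not pass. The 3 probe sets of HLA-E lay the other way, from 0.051 to 0.23, and 1 of them passed. HLA-E 200905_x_at read 8.44, 8.60 and 8.59 with PIK75 and 8.40, 8.25 and 8.30 in control (0.23, adjusted p = 0.00915).

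TAP2 was the member whose probe sets parted. A pair of dimmer ones rose with PIK75, 204770_at by 0.37 (adjusted p = 0.00206) and 208428_at by 0.26 (adjusted p = 0.0305), while 225973_at fell by 0.37 (adjusted p = 0.0291). The fall of TAP2 225973_at rested largely on 1 array, since it read 6.70, 7.18 and 7.33 with PIK75 and 7.41, 7.50 and 7.43 in control. All 3 of these TAP2 probe sets read in the range of silent genes, and the brightest did not pass. No direction was therefore assigned to TAP2. The probe sets of B2M (-0.047, -0.016 and 0.15) and of TAPBP (-0.080 to 0.20) did not pass. Some values were exactly equal on several arrays, such as 6.63 for HLA-F 221978_at on all 3 PIK75 arrays, so its SD there was 0.

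**Figure D2:**
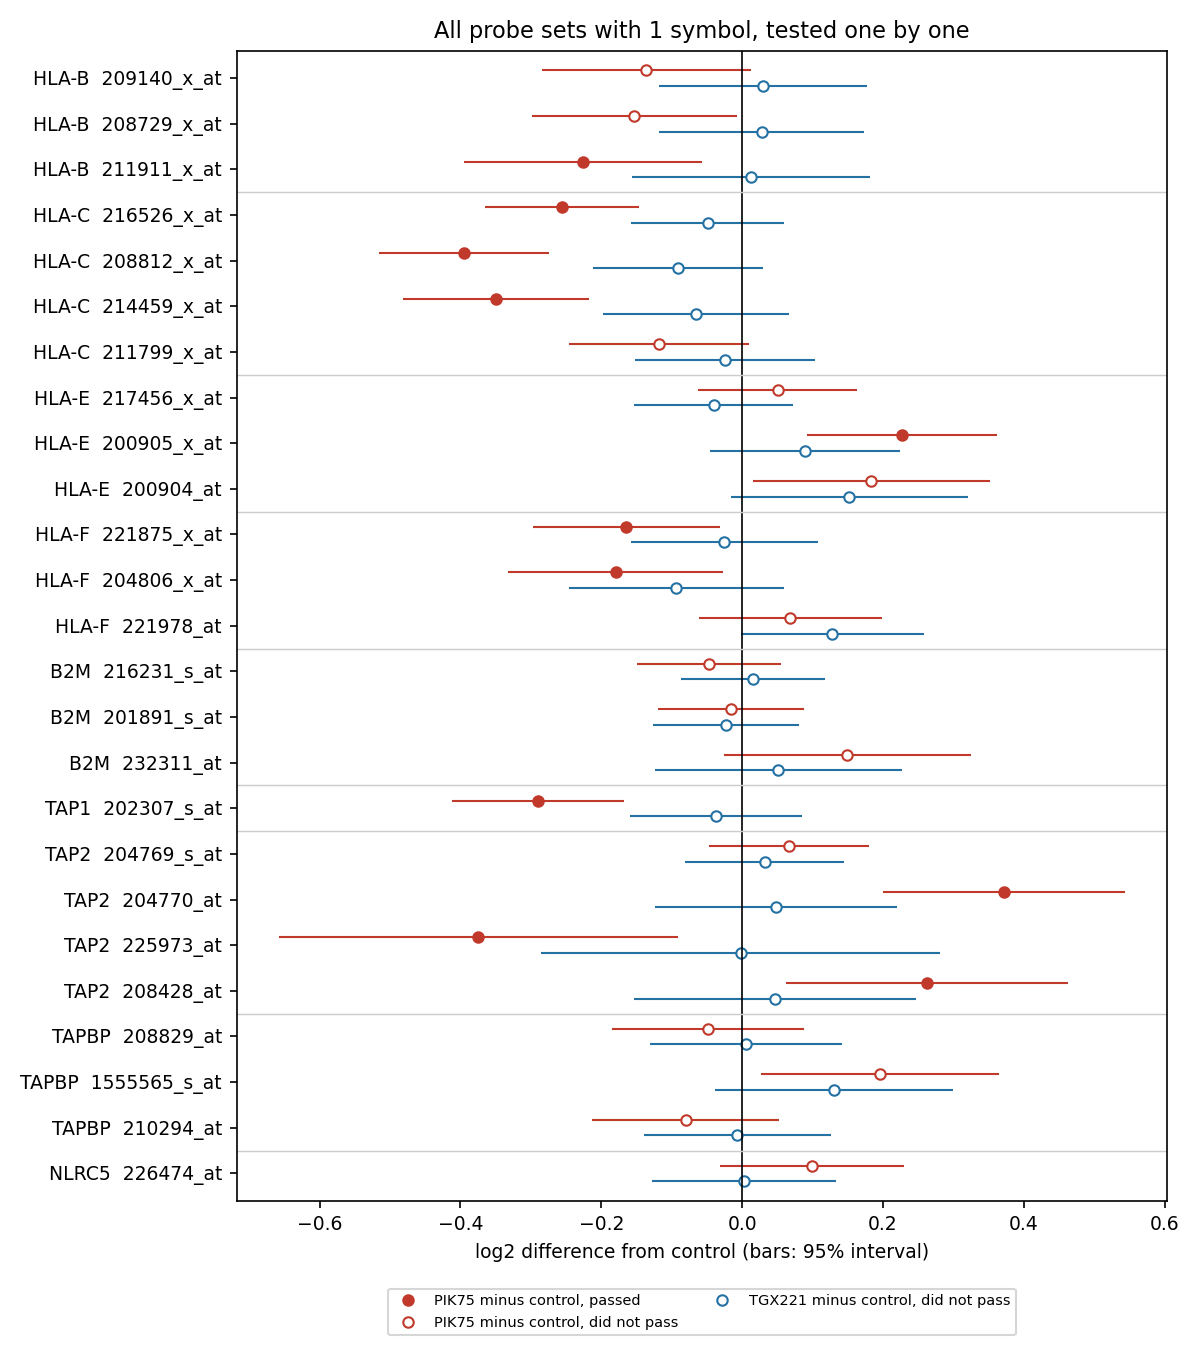
Log2 difference from control (horizontal axis, 95% interval as bars) for each of the 25 probe sets, with PIK75 in red and TGX221 in blue, filled where the adjusted p was below 0.05. HLA-C probe sets lie left of 0 with PIK75 and those of HLA-E right of it, TAP2 has filled points on both sides, and no TGX221 point is filled.

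These small differences depended on how the arrays were put on 1 scale. Centring on the hybridization spikes, which are added after labelling, moved the median of all genes with PIK75 from 0.088 to -0.26, and then all 9 members passed lower, with a median of -0.40. With the poly-A spikes, which are added before labelling, the members' median was -0.13 and the same number, 3, passed. With cyclic loess 2 passed, HLA-C (-0.14) and TAP1 (-0.41), and the median was -0.024. Relative to the median of all genes, HLA-C and TAP1 were lower under each of these scalings.

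**Figure D3:**
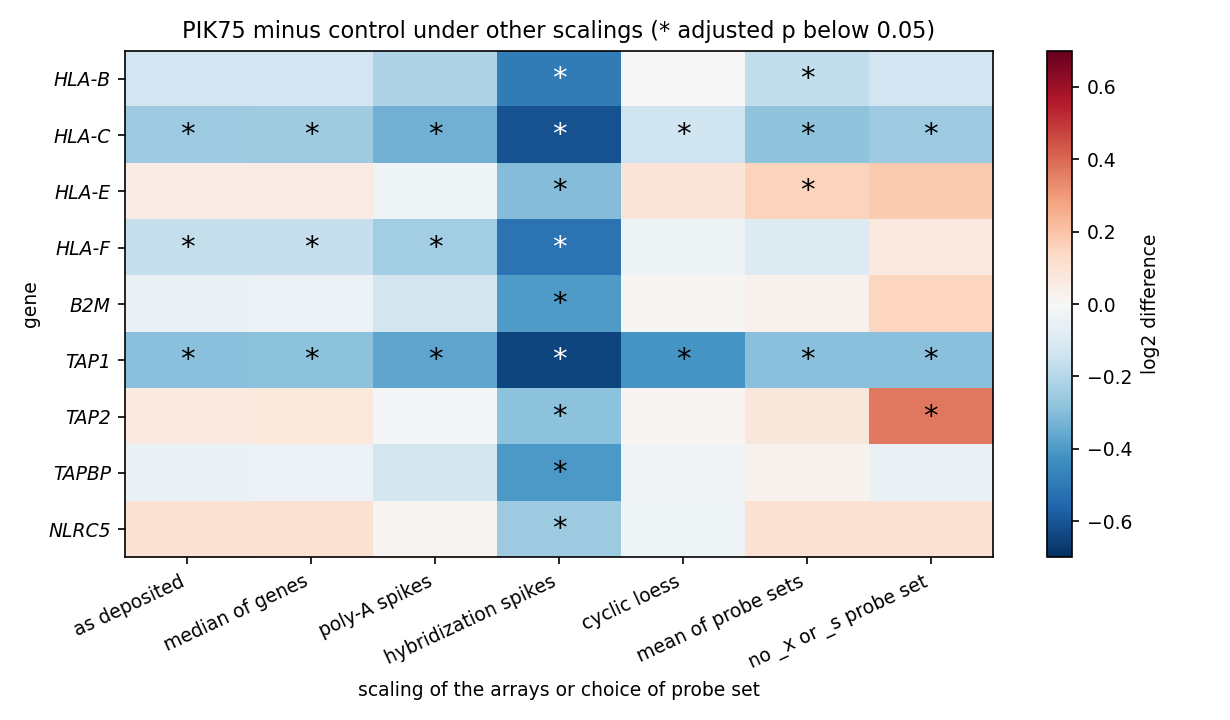
Log2 difference of each gene, PIK75 minus control (colour, blue for lower and red for higher), as deposited and under 6 other scalings or choices of probe set, with an asterisk where the adjusted p was below 0.05. HLA-C and TAP1 are blue with an asterisk in every column, and all 9 genes are blue with the hybridization spikes only.

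Genes for the factors with which NLRC5 acts at class I promoters were lower with PIK75. Of 7 measured genes for RFX, CREB1 and NF-Y, with no ATF gene among them, 6 fell with PIK75 and 0 rose. NFYB did not pass by limma (-0.18, adjusted p = 0.0683). At an unadjusted p below 0.05 all 7 were lower. Among all genes 25.2% were called lower, and the median log2 difference of the list was -0.51, against 0.088 over all genes. RFX5, the subunit that binds the X box, read 9.55, 9.41 and 9.58 with PIK75, 10.36, 10.33 and 10.30 with TGX221, and 10.34, 10.27 and 10.43 in control. The PIK75 arrays lay well below all others, and RFX5 was 1.78-fold lower than in control (-0.84, SE 0.061, adjusted p = 2.25e-07), with its second probe set lower as well. Its partner RFXAP was 2.34-fold lower (-1.23, SE 0.16, adjusted p = 3.77e-05), although its other, dimmer probe set did not pass (0.068). RFXAP read in the range of silent genes on all arrays. RFXANK, the other subunit, was 1.42-fold lower (-0.51), CREB1 1.48-fold (-0.57) and NFYC 1.29-fold (-0.37). Of their probe sets, 2 of the 7 of CREB1 and 3 of the 6 of NFYC did not pass. NFYA was 1.37-fold lower (-0.46), with 2 of its 6 probe sets lower and 2 higher. With TGX221 0 of the 7 passed by limma (1 at an unadjusted p below 0.05), and RFXAP had the largest difference (-0.35, adjusted p = 0.273). The count of lower genes in this list lay between 6 and 7 under the other scalings and the mean of probe sets, and was 5 with the brightest probe set without a shared-probe suffix, 5 without dim genes and 2 at a minimum of 1.5-fold.

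**Figure D4:**
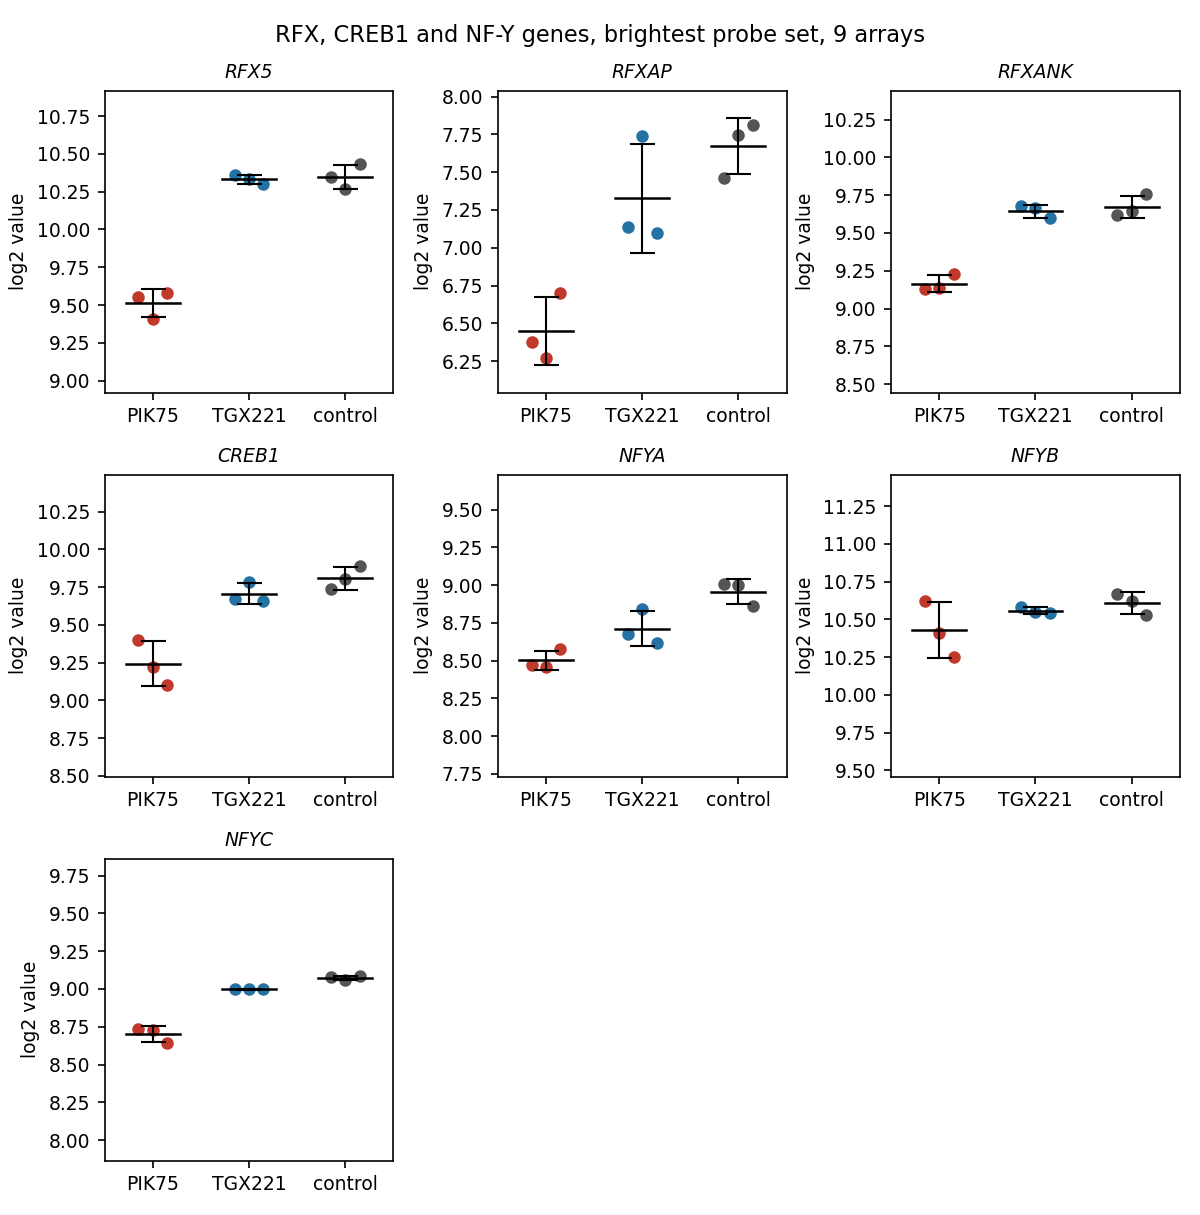
Log2 value of the brightest probe set of 7 genes that encode RFX, CREB1 and NF-Y factors (vertical axis, a span of 2 log2 units in each panel) on the arrays of each group (points), with the mean and SD of 3 arrays. The PIK75 points lie below all control points for each gene except NFYB, and the TGX221 points of RFX5 and RFXANK lie among or next to those of control.

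Among other genes of peptide supply and loading, 9 of 17 measured fell with PIK75 and 1 rose, where 25.2% of all genes were lower and 35.2% higher, and their median was -0.17. The count of lower genes was 15 with hybridization spikes, 6 with cyclic loess and 3 at a minimum of 1.5-fold. UGGT1, which checks the folding of glycoproteins such as class I chains, was 2.41-fold lower (-1.27, SE 0.059, adjusted p = 5.75e-09), and ERAP2, an aminopeptidase that trims peptides in the endoplasmic reticulum, was 2.30-fold lower (-1.20). ERAP2 read 7.21, 7.01 and 7.11 with PIK75, 8.01, 8.49 and 8.15 with TGX221, and 8.15, 8.37 and 8.39 in control. All these values lie in the range of silent genes, and 2 of the 5 probe sets of ERAP2 did not pass. ERAP1, the other trimming enzyme, did not pass (0.13, adjusted p = 0.164), though 1 of its 5 probe sets fell (-1.23). TAPBPL, a tapasin relative that edits peptides outside the pump complex, was 1.30-fold lower (-0.38). The chaperone CALR (-0.27) and the disulfide isomerase PDIA3 (-0.20), both part of the loading complex, were lower, and the chaperone CANX did not pass (0.038, adjusted p = 0.493). PSME1, which encodes an interferon-inducible proteasome activator subunit, was 1.32-fold lower (-0.40). The immunoproteasome subunits PSMB8 (-0.051), PSMB9 and PSMB10 (0.043) did not pass, while of the constitutive ones PSMB6 fell (-0.25) and PSMB5 (0.072) and PSMB7 (-0.021) did not pass. BCAP31, a receptor for proteins that leave the endoplasmic reticulum, was the 1 gene of this list that rose (0.24). With TGX221 0 of the 17 passed by limma (0 at an unadjusted p below 0.05).

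Interferon signalling did not move as 1 block. Of 17 measured receptors, kinases and transcription factors 6 rose and 3 fell with PIK75 (median -0.010), against 35.2% higher and 25.2% lower among all genes. IFNAR1, a chain of the type I interferon receptor, rose (0.66) with 1 of its 4 probe sets lower, and IRF9, in the range of silent genes, rose (0.32). JAK1 fell (-0.37) with 2 of its 5 probe sets higher, and STAT3 fell (-1.20) with 1 of its 4 probe sets higher. The phosphatase PTPN2, which restrains JAK signalling, fell (-1.39), although 4 of its 7 probe sets did not pass. The interferon gamma receptor genes IFNGR1 (-0.067) and IFNGR2 (-0.048) and the transcription factors IRF1 (0.11) and IRF2 (-0.16) did not pass. Of 38 interferon-stimulated genes 15 rose and 6 fell, close to the 35.2% of all genes called higher and below the 25.2% called lower, with a median of 0.13 that turned to -0.22 with the hybridization spikes and to -0.0039 with cyclic loess. IFI27 (0.51) and IFI35 (0.42) rose most as deposited, and IFIT1 (-0.75) and USP18 (-0.55) fell most. Of these, IFI27, IFI35 and IFIT1 read in the range of silent genes. IFIT1 was the 1 gene of these lists that passed with TGX221 (-0.25, adjusted p = 0.0414). No gene at all passed for TGX221 with the replicate block, with only those 2 groups, or without control replicate 3, TGX221 replicate 2 or TGX221 replicate 5 (0 of all genes each), so this call was lost there.

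The MHC class II genes present peptides to CD4 T cells. With PIK75 9 of 13 rose and 0 fell by limma (0 lower at an unadjusted p below 0.05 too), where 35.2% of all genes rose and 25.2% fell, and the median was 0.22 as deposited but -0.13 with the hybridization spikes, where 3 fell. CIITA, the class II relative of NLRC5, averaged 7.89 with PIK75 and 7.71 in control (0.18, adjusted p = 0.0158). CD74, the invariant chain, averaged 8.97 with PIK75 and 8.63 in control (0.34, adjusted p = 0.00188). Most of these genes read in the range of silent genes, and other dim lists rose alongside. Of 15 leukocyte markers 8 rose and 0 fell by limma (9 higher and 0 lower at an unadjusted p below 0.05, median 0.16), and of 24 genes of unrelated tissues 10 rose and 1 fell (median 0.16). With cyclic loess 4 class II genes and 3 leukocyte markers rose. The part of this general shift of dim genes in the class II values was not tested.

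Polycomb repressive complex 2 is known to silence class I genes in tumours of this type. Its catalytic subunit EZH2 rose with PIK75, at 11.75, 11.67 and 11.57 with PIK75, 11.22, 11.30 and 11.19 with TGX221, and 11.20, 11.15 and 11.30 in control (0.45, SE 0.063, adjusted p = 6.77e-05). Of the 9 genes of the complex and its partners 7 fell, where 25.2% of all genes did, among them RBBP7 (-0.82), JARID2 (-0.78), EED (-0.70) and SUZ12 (-0.49, with 1 of its 3 probe sets higher). The median was -0.44. With the brightest probe set without a shared-probe suffix 5 fell (median -0.20), and 3 fell by at least 1.5-fold. With TGX221 0 of the 9 passed by limma (1 at an unadjusted p below 0.05).

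**Figure D5:**
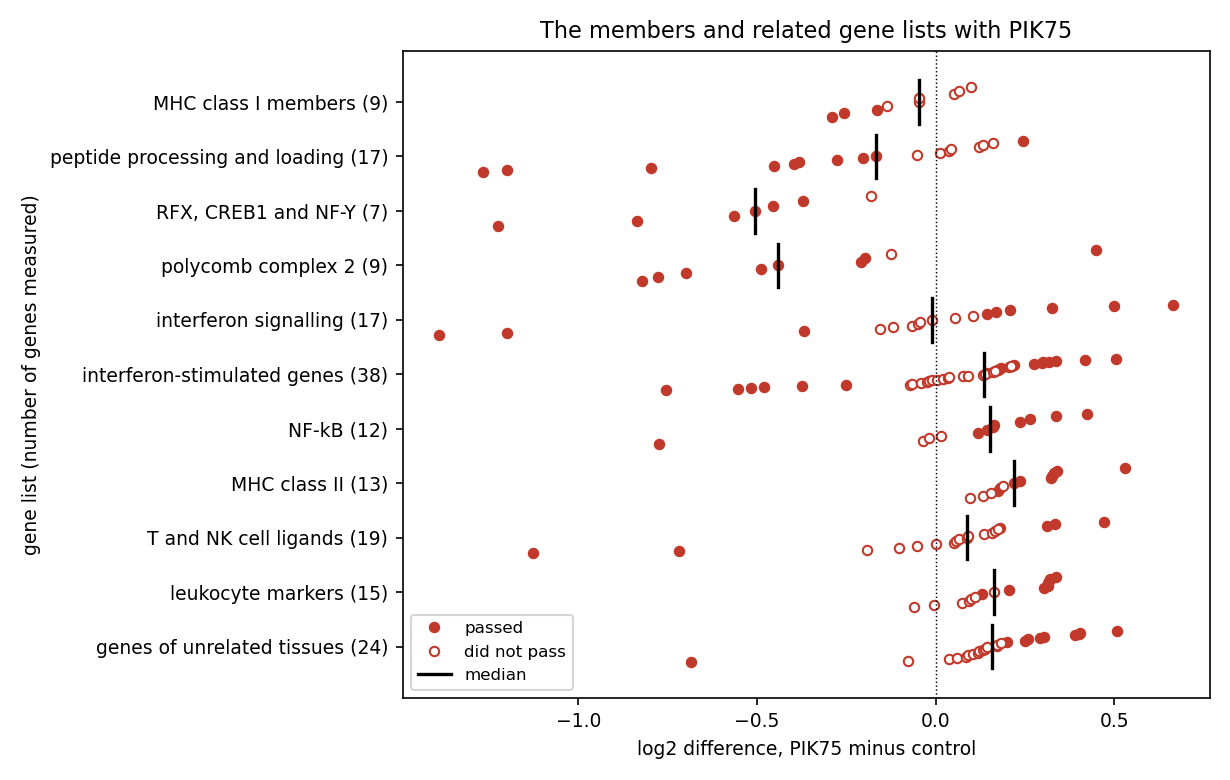
Log2 difference of each gene, PIK75 minus control (horizontal axis), by gene list (rows, with the number of genes measured), filled where the adjusted p was below 0.05, with the median of each list as a black line. The class I members lie close to 0, with RFX, CREB1 and NF-Y genes and polycomb genes mostly to the left and MHC class II, leukocyte and unrelated-tissue genes mostly to the right.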

How the data were processed

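RNA of H69 cells was measured on 9 Affymetrix arrays, 3 each with PIK75, TGX221 and DMSO. The deposited values are log2 signals, which the authors made by RMA per the submitters' processing notes (version not given in the sources used here). RMA as usually run equalises probe values across arrays, which would remove a shift shared by most genes; its settings are not given in the sources used here. Of 54675 probe sets, 41091 had 1 gene symbol, 1801 several and 11721 none, and the 62 control probe sets were left out. Each of 19775 genes stood for its brightest probe set. Group means of all 9 arrays were fitted with limma 3.58.1 in R 4.3.3 (lmFit, eBayes), with Benjamini-Hochberg adjustment over all genes and calls at an adjusted p below 0.05. The number of arrays limits the precision, and 3 against 3 cannot go below an exact permutation p of 0.1. The code of the fit was run on simulated data with few changed genes and independent noise. That setting differs from the PIK75 arrays, so it does not gauge the calls made here. The genes named were the 9 members and a set of pathway genes picked by role. In some lists, called genes with the largest rise or fall with PIK75 were named as well. This was not done in every list. The largest rises among class II genes (HLA-DMA, 0.53) and class I-like genes (PROCR, 0.34), both in the range of silent genes, were left out above. So was the largest fall among neuroendocrine markers (DDC, -1.21). NFYB and NFYC were named after their values were seen. Genes of like pattern were sought only for members with an SD over the 9 arrays of at least 0.2, which none of the 9 reached. The members and lists were chosen with earlier results of these data known. Of 226 list entries 209 were measured, and the rest were not analysed here. The labels do not say whether replicate numbers pair the arrays. Deviations from the group means correlated with r of -0.13 to 0.23 for same-numbered arrays and -0.29 to 0.26 for the others. With 3 arrays a group this cannot settle the question, so the block was run as an alternative only. Promoters came from RefSeq (GRCh38.p14). Alternatives covered scaling, choice of probe set, brightness, spread, array weights, replicate block, thresholds and left-out arrays.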

Additional observations from a re-analysis of the deposited data

How the results depend on the processing

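Of the 9 genes 3 were called with PIK75 against control, and this count was 9 with hybridization spikes, all lower, 0 at a minimum of 1.5-fold (3 at an unadjusted p below 0.05) and 2 to 4 with 1 array left out. Over all genes 11947 were called, 6965 higher and 4982 lower, against 7578 with poly-A spikes (2469 higher, 5109 lower), 7307 without genes below the median brightness, 2354 at 1.5-fold, and 10242 to 11910 with 1 array left out. The split was 386 higher and 13108 lower with hybridization spikes and 4312 higher and 5024 lower with cyclic loess. For TGX221 against control 0 of 9 genes were called throughout. Over all genes 239 were called, against 508 with poly-A spikes, 633 with hybridization spikes, 30 with the mean of probe sets, 56 with every probe set on its own, 0 with only those 2 groups (4036 at an unadjusted p below 0.05), 1313 with array weights, 3 at 1.5-fold, 0 at an adjusted p below 0.01 (3620 unadjusted), and 0 to 701 with 1 array left out. For PIK75 against TGX221 2 of 9 were called, against 4 with poly-A spikes, 9 with hybridization spikes, 1 with cyclic loess, 4 with a trended spread, 0 at 1.5-fold (4 unadjusted), and 2 to 3 with 1 array left out. Over all genes 9379 were called, 2012 at 1.5-fold and 7752 to 9243 with 1 array left out. With the replicate block, 2 of the 9 genes were called with PIK75 against control (HLA-F lost, adjusted p = 0.0561), 11424 of all genes, and 0 of all genes with TGX221 (2183 unadjusted). The block left the count for PIK75 against TGX221 at 2. Sign turns are given here only where the difference passed before or after the turn. With hybridization spikes these were, for PIK75 minus control, HLA-E (-0.30), TAP2 (-0.29) and NLRC5 (-0.25). For PIK75 minus TGX221 they were HLA-E (-0.20), TAP2 (-0.25) and NLRC5 (-0.19). HLA-F turned against control with the choice of probe set, at 0.068 for the one with no suffix. Differences that passed on neither side also turned, such as HLA-E against control with poly-A spikes (-0.030). The cause was not tested. TAP1 and NLRC5 were not tested without dim genes, being among them. Counts for the gene lists under these settings were chosen after seeing the data.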

Other observations

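Genes for ligands that T cells and natural killer cells read beside class I were called in small numbers with PIK75. Of 19 measured, 4 rose and 2 fell, where 35.2% of all genes rose and 25.2% fell, with a median of 0.087 as deposited and -0.27 with hybridization spikes. CD58, an adhesion ligand of the T cell receptor CD2, was lower (-1.13, adjusted p = 5.55e-08), as was CD47, the signal that restrains phagocytes (-0.72, adjusted p = 9.25e-07). Of their probe sets, 2 of the 5 of CD58 and 1 of the 7 of CD47 did not pass. MICA, a stress ligand of natural killer cells, was higher (0.47, adjusted p = 0.000449), as was CD274, which encodes PD-L1 (0.33, adjusted p = 0.00433). However, CD58, MICA and CD274 read in the range of silent genes. The genes of unrelated tissues had a median of 0.16 as deposited, and 1 of the 2 probe sets of CD274 did not pass (0.063). With TGX221 CD274 was at 0.19 and did not pass (adjusted p = 0.235). The difference between the compounds did not pass either (0.14, adjusted p = 0.183).

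Of 12 genes of the NF-kB pathway 8 rose with PIK75 and 1 fell, where 35.2% of all genes rose. The count of higher genes was 2 with poly-A spikes, 0 with hybridization spikes, and 5 with cyclic loess or without PIK75 replicate 5. The list had a median of 0.15 as deposited and -0.20 with hybridization spikes. RELB (0.42) and NFKBIA (0.34, adjusted p = 0.00212), which encodes an inhibitor of NF-kB, were higher, and the kinase CHUK was lower (-0.77). The 2 probe sets of RELA were higher too (0.24 and 0.28). RELB read in the range of silent genes. NFKB1 did not pass (-0.037). Of 6 class I-like genes 3 rose and 0 fell by limma (0 lower at an unadjusted p below 0.05), where 35.2% of all genes rose and 25.2% fell. Their median was 0.16 as deposited and -0.19 with hybridization spikes. Averaged over all arrays, all 6 read in the range of silent genes, and the genes of unrelated tissues also had a median of 0.16 as deposited.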
